A study of Mus musculus with 8 samples.

Results

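MHC class I antigen presentation was examined in 10 genes: Nlrc5, Tap1, Tap2, Tapbp, Psmb8, Psmb9, H2-K1, H2-D1, B2m and Erap1. All rows of the arrays that were not controls and carried 1 of these gene names were taken, which gave 13 probes among 55681, and each gene entered the fit once among 19693 features. The genes were chosen with their GFP-positive minus GFP-negative differences already known, so these differences are given as a description without a test. Of the 13 probes, 12 were kept by the filter on dim probes, and all 10 genes had a kept probe.

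MAM326 is a mouse mammary cancer cell line. Cells grown in DMEM with 10% heat-inactivated serum were separated 2 days after seeding, by fluorescence-activated cell sorting, into GFP-positive and GFP-negative fractions. Each fraction was represented by 4 one-colour Agilent arrays, labelled with Cy3 from 20 ng of total RNA, and the study set out to describe a mammary cancer stem cell population. Both fractions share the line, the medium and the sort; the labels name 4 independent experiments at 4 passages but not which arrays share one. The sources used here do not say what drives GFP or whether the line is 1 clone.

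MHC class I molecules show peptides from inside a cell to CD8 T cells. The proteasome cuts proteins into peptides, the TAP transporter carries these into the endoplasmic reticulum, tapasin holds the empty class I molecule beside TAP, and a heavy chain with beta-2 microglobulin then takes a trimmed peptide to the cell surface. Interferons raise most of these genes together, in part through the transactivator NLRC5, and loss of the pathway is a known way for tumour cells to escape T cells.

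The 8 arrays lay on 1 slide and came from 1 scan, in 2 rows of the slide: GFP-positive replicates 1 and 3 and GFP-negative replicates 2 and 4 in row 1, the others in row 2. Between 25105 and 31965 probes per array were well above background, 45.1% to 57.4%, and 0 spots were saturated. Levels are log2 signals relative to the array's 75th percentile, which is 0, and levels of different probes are not set against each other. In limma, 503 of 19693 features (2.55%) passed an adjusted p of 0.05, 357 higher (1.81%) and 146 lower (0.741%) in GFP-positive cells. At an unadjusted p under 0.05, 1542 of these 19693 were higher and 2982 lower, the background for such counts in the lists below. The median difference over all features was -0.06 on the log2 scale, and -0.18 when arrays were scaled to their median. RNA was from bulk fractions, so fewer cells of a type and less RNA per cell cannot be told apart.

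The largest differences lay in 2 places of the pathway, its transactivator and 1 chain of its transporter, and the arrays of the fractions overlapped for the antigen-presenting chains themselves. Nlrc5 was 2.06 ± 0.28 higher in GFP-positive cells (log2 difference ± standard error of the fit, 4 arrays against 4) and Tap1 1.53 ± 0.13 higher. Erap1 was 0.31 ± 0.11 lower. The other 7 genes lay between -0.27 and 0.24. The median of the 10 differences was -0.07.

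The 60-base probes of Nlrc5, Tap1 and the immunoproteasome neighbours of Tap1 are shown first, as examples of what the arrays read at these genes. None of the 4 shared a run of 20 bases or more with the probe of another gene. Their positions are those the files give on mm9, on chromosome 17 for Tap1 (34330854 to 34330913, plus strand), Psmb8 (34337771 to 34337830, plus strand) and Psmb9 (34319174 to 34319233, minus strand). The Nlrc5 probe shown is the weaker of that gene's pair, not the one behind the difference of 2.06, and maps to a span of 147 bases on chromosome 8, from 97030478 to 97030624, plus strand.
Tap1 probe: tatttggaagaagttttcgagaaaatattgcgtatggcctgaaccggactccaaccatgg
Psmb8 probe: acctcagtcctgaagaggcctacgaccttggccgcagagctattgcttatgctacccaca
Psmb9 probe: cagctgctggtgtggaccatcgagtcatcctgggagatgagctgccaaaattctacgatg
Nlrc5 weaker probe: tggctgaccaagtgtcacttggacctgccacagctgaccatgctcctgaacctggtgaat

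Nlrc5 encodes the NLR family protein that switches on class I genes in the nucleus. Its stronger probe (chromosome 8 from 97051105 to 97051164, mm9) stood at -2.45, -3.37, -2.30 and -3.07 in GFP-positive replicates 1 to 4 and at -4.38, -4.93, -5.26 and -4.85 in GFP-negative replicates 1 to 4. The groups did not overlap: the lowest GFP-positive array lay above the highest GFP-negative one. The difference of 2.06 corresponds to 4.16-fold. It was well above background on 4 of 4 GFP-positive but only 2 of 4 GFP-negative arrays, so the GFP-negative level is close to what the arrays can measure.

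The weaker Nlrc5 probe read less. It stood at -4.42, -4.85, -4.54 and -4.62 in GFP-positive and at -4.95, -4.96, -5.04 and -5.17 in GFP-negative replicates 1 to 4. These groups did not overlap either, but the difference was 0.43, or 1.34-fold, and the probe was well above background on 3 of 4 and 2 of 4 arrays. The pair of probes thus gave the same sign and sizes that differ. As the mean of both probes the difference was 1.24, and with another background correction (normexp) it was 0.69.

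Tap1 encodes 1 of the 2 chains of the peptide transporter. Its probe stood at -0.59, -0.96, -0.64 and -0.68 in GFP-positive and at -2.46, -1.97, -2.19 and -2.38 in GFP-negative replicates 1 to 4. The groups were apart by more than the whole spread within either of them, 0.37 and 0.49 on the log2 scale. The difference of 1.53 is 2.89-fold. The probe is printed 10 times on each array, and the SD between its spots ran from 0.04 to 0.26, so the reading of an array does not rest on a single spot.

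Tap2 encodes the partner chain of the transporter. It stood at 3.57, 3.50, 2.38 and 4.13 in GFP-positive and at 2.56, 3.96, 3.34 and 3.50 in GFP-negative replicates 1 to 4. The groups overlapped over nearly their whole range, with the lowest and the highest array both GFP-positive, and the difference was 0.05 ± 0.41. Whether the 2 chains of the transporter differ from each other in this was not tested. Tapbp encodes tapasin, the bridge between the transporter and the empty class I molecule. It stood at 3.98, 3.98, 3.81 and 4.07 in GFP-positive and at 3.92, 4.20, 3.96 and 4.09 in GFP-negative replicates 1 to 4, with overlapping groups and a difference of -0.08 ± 0.09.

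**Figure D1:**
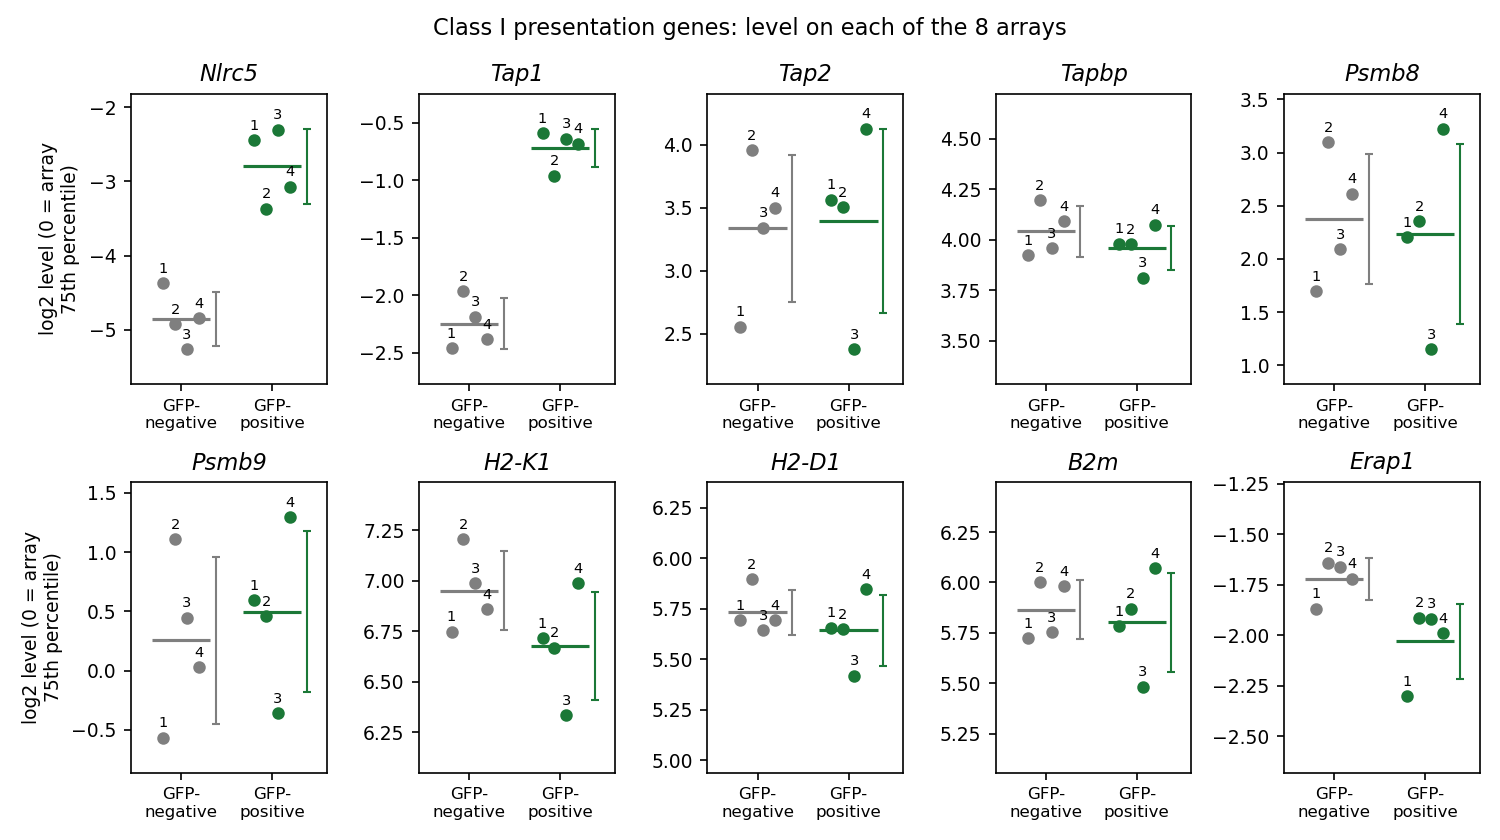
Level of each of the 10 genes on each of the 8 arrays, on the log2 scale where 0 is the array's 75th percentile. Points are arrays, numbered by replicate; horizontal lines are group means and bars 1 SD over 4 arrays; each panel has its own axis, since levels of different probes are not comparable. Nlrc5 and Tap1 are the genes whose GFP-positive arrays all lie above the GFP-negative ones, and Erap1 the gene whose GFP-positive arrays all lie below.

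Psmb8 and Psmb9 encode catalytic subunits that replace their constitutive counterparts in the immunoproteasome. Psmb8 stood at 2.20, 2.35, 1.15 and 3.22 in GFP-positive and at 1.70, 3.10, 2.09 and 2.61 in GFP-negative replicates 1 to 4. Psmb9 stood at 0.59, 0.46, -0.36 and 1.29 in GFP-positive and at -0.56, 1.11, 0.45 and 0.03 in GFP-negative replicates 1 to 4. In both genes the arrays of one fraction spread over more than 1.4 on the log2 scale and the fractions overlapped. The differences, -0.14 ± 0.46 and 0.24 ± 0.43, were smaller than their standard errors. A second Psmb9 probe was not well above background on any array.

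The chains of the class I molecule itself were bright on every array. H2-K1, a classical heavy chain, stood at 6.72, 6.67, 6.33 and 6.99 in GFP-positive and at 6.75, 7.20, 6.99 and 6.86 in GFP-negative replicates 1 to 4. H2-D1, the other classical heavy chain measured, stood at 5.66, 5.65, 5.42 and 5.85 in GFP-positive and at 5.69, 5.90, 5.65 and 5.69 in GFP-negative replicates. B2m, the light chain that every class I molecule needs, stood at 5.78, 5.87, 5.48 and 6.07 in GFP-positive and at 5.72, 6.0, 5.75 and 5.98 in GFP-negative replicates.

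The fractions overlapped in all 3 chains. The differences were -0.27 ± 0.15 for H2-K1, -0.09 ± 0.11 for H2-D1 and -0.06 ± 0.14 for B2m. The H2-K1 probe is printed 10 times per array with an SD between spots of 0.05 to 0.10. A second H2-K1 probe gave -0.22, but it shares a run of up to 29 bases with probes of H2-T23 and of another annotated locus, so it may read related transcripts.

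Erap1 encodes the aminopeptidase that trims peptides in the endoplasmic reticulum. It stood at -2.30, -1.91, -1.92 and -1.99 in GFP-positive and at -1.87, -1.64, -1.66 and -1.72 in GFP-negative replicates 1 to 4. The groups did not overlap, though the highest GFP-positive and the lowest GFP-negative array were only a few hundredths apart. The level was 1.24-fold lower in GFP-positive cells.

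Counted together, 2 of the 10 genes passed the threshold in limma, both higher, beside 2.55% of all features. In 3 of 10 the fractions did not overlap, beside 16.7% of 19682 features without a missing value. Because the genes were selected on this contrast, nothing is read from these shares. Of the 10 differences 4 were positive and 6 negative, against 60.7% negative over all features; with quantile normalization 6 were positive, and with scaling to the array median 3. The signs of Tap2, Psmb8, Psmb9, B2m, H2-D1 and Tapbp changed in at least 1 alternative processing. Those of Nlrc5, Tap1, H2-K1 and Erap1 did not.

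Tap1 and Psmb9 lie head to head in the class II region of the mouse MHC, next to Psmb8 and Tap2, and share the stretch between their starts. That stretch is printed because one of the genes it separates stood higher in GFP-positive cells and the other overlapped between fractions. The upstream stretches of H2-D1 and B2m are printed beside it as chains that overlapped. Sequences are from RefSeq promoters on GRCm38.p6, plus strand, in which 8 of the 10 genes had an entry. Capitals mark matches to the motifs named after the sequences.
Tap1 and Psmb9, chr17:34187331-34187555: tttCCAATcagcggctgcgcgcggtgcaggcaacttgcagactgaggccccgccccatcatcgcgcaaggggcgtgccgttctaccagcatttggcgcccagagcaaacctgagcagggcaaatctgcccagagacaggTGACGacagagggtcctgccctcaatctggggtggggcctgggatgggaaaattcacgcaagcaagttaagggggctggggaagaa
H2-D1, chr17:35262914-35263093: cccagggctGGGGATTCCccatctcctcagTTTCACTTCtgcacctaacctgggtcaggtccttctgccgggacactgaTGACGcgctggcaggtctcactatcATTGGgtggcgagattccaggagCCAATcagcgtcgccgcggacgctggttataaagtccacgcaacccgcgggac
B2m, chr2:122147507-122147686: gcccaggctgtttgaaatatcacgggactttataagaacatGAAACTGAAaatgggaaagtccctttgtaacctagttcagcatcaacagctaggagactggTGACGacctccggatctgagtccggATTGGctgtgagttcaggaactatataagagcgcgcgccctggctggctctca

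The motifs were searched on both strands in the 250 bases before each start, and their shares are over 32851 such windows of all genes. For Erap1 and H2-K1 the starts used lie inside the span RefSeq gives the gene, so their windows are not upstream of the whole gene. TGACG, the core shared by the X2 box and by CREB sites, lay in windows of Tap1, Psmb9, H2-K1, H2-D1 and B2m, and in 17.8% of all windows. CCAAT, the NF-Y box, lay in these 5 and in Tapbp, and in 33.8% of all windows. The full CRE, TGACGTCA, which contains TGACG, was in 0 of the members' windows and in 1.55% of all. Both short motifs thus stand in the Tap1 and Psmb9 stretch and before the heavy and light chains.

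Motifs of interferon and NF-kB signalling lay before 1 or 2 of the genes each. GAAANNGAA, a core of the interferon-stimulated response element, lay before B2m, 139 to 131 bases from its start, and in 7.13% of all windows. It also lay 9 to 1 bases before the Erap1 start used, which is inside that gene's span. Its mirror spacing GAANNGAAA, searched only after the sequences had been seen, lay before H2-D1 and H2-K1, and in 6.31% of all windows. GGGNNTTCC, a kappa B site, lay before the same heavy chains and in 4.98% of windows, and TTCNNNGAA, a gamma-activated site, before Psmb8 and in 7.02%. A match is a description of letters and no evidence of binding.

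A measure that the choice of genes did not use was how the GFP difference varied between the 2 rows of the slide, each with 2 arrays per fraction. In this layout the gap equals the mean level of replicates 1 and 3 minus that of replicates 2 and 4, added over both fractions. A level that shifts between these replicates alike in both fractions therefore gives a gap too. The gap also draws on the same variation between arrays as the r given further below. Over all features 240 (1.22%) had a difference between rows past an adjusted p of 0.05 in limma, and 3790 at an unadjusted p under 0.05. Among the 10 genes 0 passed, and 2 had an unadjusted p under 0.05. The row itself was past the threshold for 0 of 19693 features (0%), with 410 at an unadjusted p under 0.05, and for 0 of the 10 genes, which had 0 at that unadjusted p.

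Psmb8 had the widest gap between rows. It was 1.18 lower in GFP-positive cells in row 1 (log2 difference -1.18) and 0.89 higher in row 2, a gap of -2.07 ± 0.62 (adjusted p = 0.162, limma). B2m was at -0.36 and 0.23 (adjusted p = 0.18). Tap2 was at -0.76 and 0.87 (adjusted p = 0.264) and Psmb9 at -0.45 and 0.94 (adjusted p = 0.395, both limma).

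Tap1 was at 1.56 in row 1 and 1.50 in row 2, a gap of 0.06 ± 0.26 (adjusted p = 0.916, limma). Nlrc5 was higher in both rows too, at 2.51 and 1.60 (adjusted p = 0.29). Erap1 was lower in both, at -0.43 and -0.19, and H2-K1 at -0.51 and -0.04. H2-D1 was at -0.26 and 0.08 and Tapbp at -0.25 and 0.08. The median over the 10 genes was -0.39 in row 1 and 0.55 in row 2, so that its sign depended on the row. Slide row, replicate number and the experiment an array came from cannot be told apart in this layout.

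**Figure D2:**
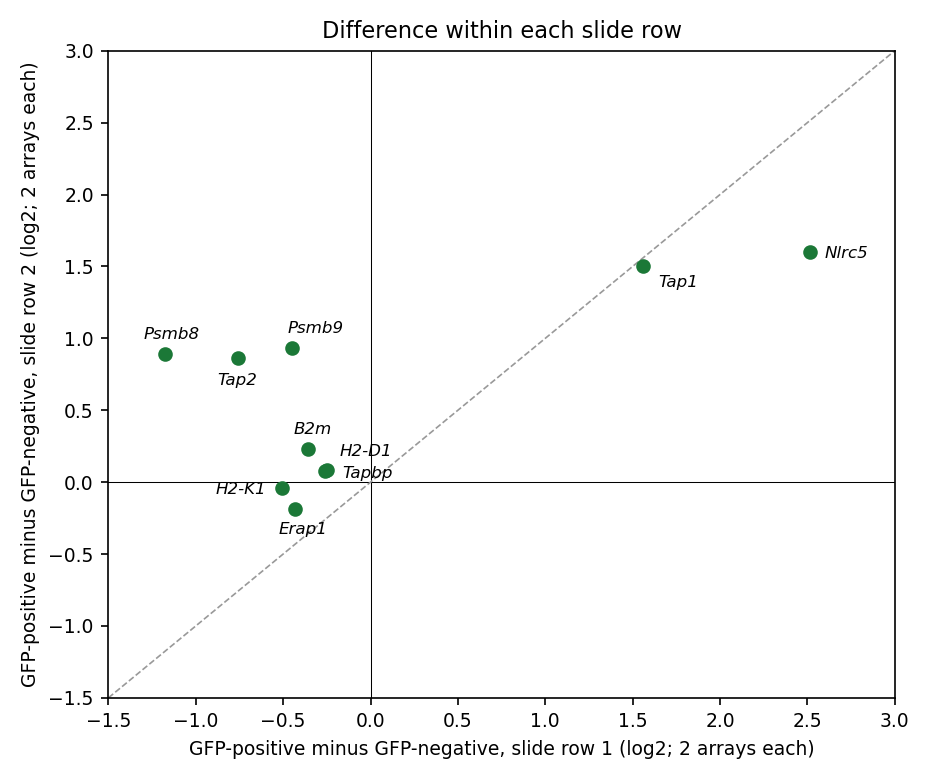
GFP-positive minus GFP-negative difference (log2) of each gene in slide row 1 (horizontal axis) and row 2 (vertical axis), each from 2 arrays per fraction; the dashed line marks equal differences. Tap1 lies on the line at 1.56 and 1.50, Nlrc5 below it at 2.51 and 1.60, and Psmb8, Tap2, Psmb9 and B2m in the quadrant that is negative in row 1 and positive in row 2.

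Within each fraction 7 of the genes moved together from array to array: H2-K1, H2-D1, B2m, Psmb8, Psmb9, Tap2 and Tapbp, a group that was put together after the values were seen. Among GFP-positive arrays replicate 4 was the highest and replicate 3 the lowest in all 7. Among GFP-negative arrays replicate 2 was the highest in all 7, and replicate 1 the lowest in all but H2-D1, where it was replicate 3. After each level was set relative to its fraction's mean, the 21 pairs had Pearson r from 0.80 to 0.98 over the 8 arrays, with a median of 0.92.

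Of all pairs among the 17232 features well above background on all 8 arrays, 0.733% reached that median and 4.45% reached the lowest of the 21. Because the genes were grouped after these values were seen, nothing is read from these shares. Leaving out GFP-negative replicate 2 and GFP-positive replicate 4, the arrays farthest from the median, the 21 pairs ran from 0.57 to 0.98 with a median of 0.80. The points share the slide and the scaling of each array. The 2 lowest arrays, GFP-negative replicate 1 and GFP-positive replicate 3, share neither number nor slide row. Across features, however, GFP-negative replicate 1 correlated best with GFP-positive replicate 3 (r = 0.60). GFP-negative replicate 2 correlated best with GFP-positive replicate 4 (r = 0.65). The labels do not say whether such arrays share an experiment, and this was not tested.

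The other 3 genes had lower r with these. Tap1 had r of 0.05 to 0.54 with the 7 genes, with a median of 0.34, and Erap1 of -0.05 to 0.17. Nlrc5 ran the other way, at -0.64 to -0.41 with a median of -0.58. Tap1 and Nlrc5 had r = 0.13 with each other over the 8 arrays. These r are descriptions with no test.

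**Figure D3:**
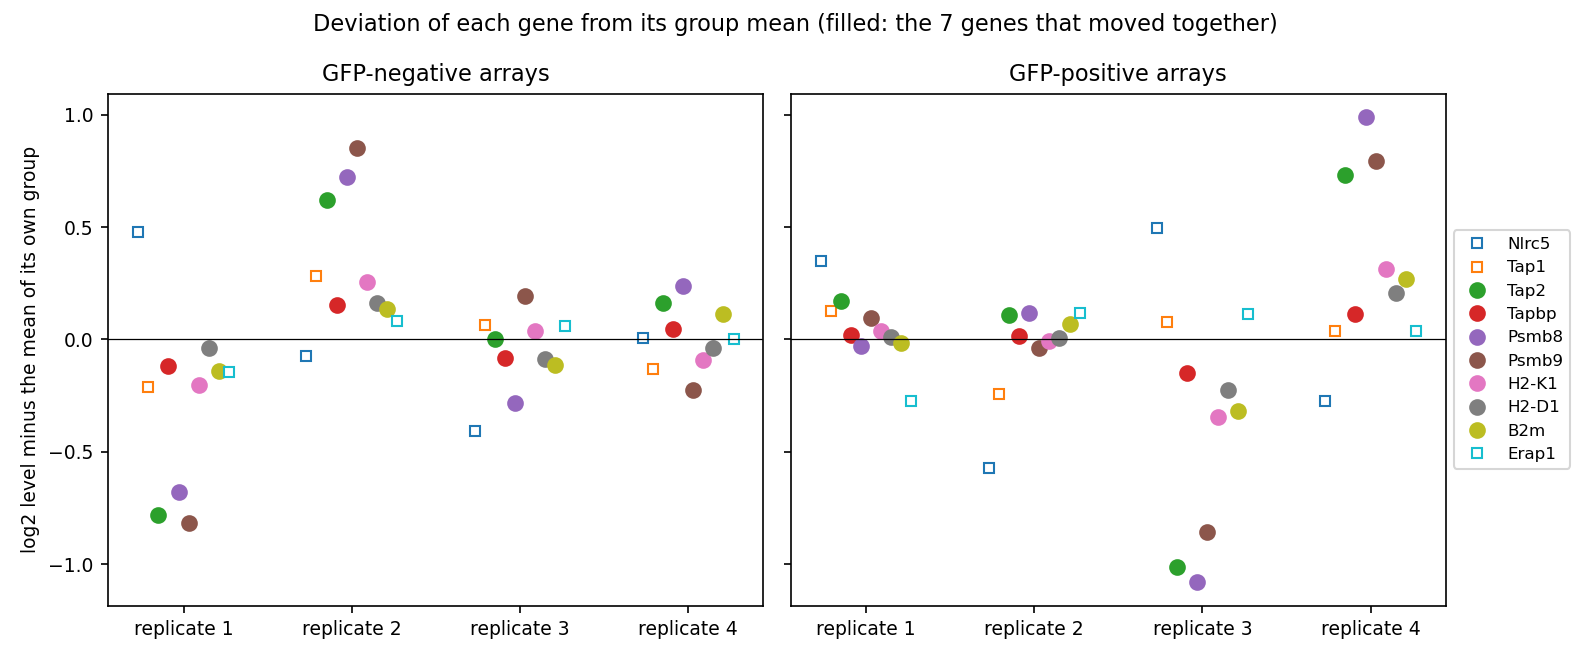
Level of each gene minus the mean of its own fraction (log2), for the 4 GFP-negative arrays on the left and the 4 GFP-positive arrays on the right. Filled circles are the 7 genes that moved together, which lie lowest on GFP-negative replicate 1 (H2-D1 on replicate 3) and GFP-positive replicate 3 and highest on GFP-negative replicate 2 and GFP-positive replicate 4; open squares are Nlrc5, Tap1 and Erap1.

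Several fibroblast markers moved with the 7 genes across arrays, and their part in the pattern was not tested. Of 11 fibroblast and endothelial markers 8 were measured, and Lum, Cdh5 and Tie1 were not well above background on any array. The log2 of their summed signal, relative to the array's 75th percentile, was 3.34 to 6.09 in GFP-positive and 4.36 to 7.47 in GFP-negative arrays. The sum weighs bright probes most, and the brightest was Col1a2 except on GFP-positive replicate 3, where it was Kdr. This sum was lowest on the arrays where the 7 class I genes were mostly lowest, GFP-positive replicate 3 and GFP-negative replicate 1. Its highest values were on GFP-positive replicate 4 and GFP-negative replicate 2. The 7 of these markers above background on all arrays had a median r of 0.80 with the mean of the 10 genes. For that mean each gene was centred within its fraction and divided by its SD. It follows mostly the 7 class I genes that moved together. Tap1, Erap1 and Nlrc5 had r of 0.38, 0.00 and -0.59 with the mean of the other members. Among the markers the lowest r was 0.36, for Kdr, the only endothelial one with an r.

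Mammary epithelial markers ran the opposite way. All 10 were measured, with r of -0.93 to -0.53 and a median of -0.74 with the mean of the 10 class I genes. Their summed signal, as a multiple of the 75th percentile, was 596 to 872 in GFP-positive and 476 to 777 in GFP-negative arrays, highest on GFP-positive replicate 3 and lowest on GFP-negative replicate 2. All 10 had positive differences between fractions, with a median of 0.48. Of the 8 fibroblast and endothelial markers 7 had negative differences and 1 a positive one, with a median of -1.48. None of either list passed the threshold between fractions. At an unadjusted p under 0.05, 3 epithelial markers were higher and 1 of the other list lower in limma. For the gap between slide rows, 4 of the 10 epithelial markers and 1 of the 8 others passed, beside 1.22% of all features. Such calls depended on single arrays: over all features their count of 240 fell to between 0 and 23 without 1 array. It was 0 with no filter on dim probes. Epcam, an epithelial adhesion molecule, was at 1.19 in row 1 and -0.23 in row 2 (adjusted p = 0.0409, limma), and Cdh1, Krt19 and Cldn7 were likewise positive in row 1 and negative in row 2 (adjusted p = 0.0412, 0.0342 and 0.0412). Pdgfra, a fibroblast receptor, was at -2.83 and 0.41 (adjusted p = 0.0342). The part of these markers in the class I values by row was not tested.

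Leukocytes carry much class I, so their markers were read beside Tap1 and Nlrc5. Ptprc, which encodes CD45, was well above background on 1 of 8 arrays, and Itgax, Lyz2, Lyz1, Laptm5 and Cd53 on 0. The summed signal of the 16 markers, on the same scale, was 20 to 28.1 in GFP-positive and 17.6 to 23.5 in GFP-negative arrays, which overlap. Bright probes weigh most in such a sum, among them Csf1r, at 3.86 on GFP-positive replicate 1 and 2.34 on GFP-positive replicate 3. Of 7 measured markers 2 rose, Cd68 and Cd14, beside 1.81% of all features. The part of leukocytes in the Tap1 and Nlrc5 differences was not tested. Cd68 rose by 1.00 ± 0.11 (adjusted p = 0.00436) and Cd14 by 0.56 ± 0.11 (adjusted p = 0.0499, limma). When each of the 8 arrays was left out in turn, Cd68 passed every time and Cd14 never. Within slide row 2 Cd68 did not pass (adjusted p = 0.358, limma). At an unadjusted p under 0.05, 2 of the 7 were higher and 1 lower, Coro1a, at -0.50 ± 0.13 (adjusted p = 0.0812, limma).

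Class II genes, which professional antigen-presenting cells express, were mostly dim. Of the 9 listed, H2-Aa, H2-Eb1, H2-Oa and Ctss were not well above background on any array, and H2-Ob was on up to 1. H2-Ab1 was above background on up to 3 GFP-positive and 0 GFP-negative arrays and was not tested. Of the 3 measured 0 passed the threshold in limma and 1 had an unadjusted p under 0.05, H2-DMb1, a chain of the class II peptide editor. It was at 1.77 ± 0.56 (adjusted p = 0.12) with fractions that did not overlap. The list's summed signal was 0.627 to 0.87 in GFP-positive and 0.541 to 0.643 in GFP-negative arrays, which overlap, and its part in the class I differences was not tested.

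The rest of the class I pathway was read from 6 lists with 83 genes, 69 of them measured. Of these 0 passed the threshold higher and 1 lower in GFP-positive cells in limma. At an unadjusted p under 0.05, 3 were higher and 13 lower, beside 1542 higher and 2982 lower of all 19693 features. Their median difference was -0.12, with 50 of 69 negative, against a median of -0.06 and 60.7% negative over all features. The gene that fell was Blmh, a cytosolic aminopeptidase, by 0.40 ± 0.07 (adjusted p = 0.0353). It passed without GFP-positive replicate 2, but not without any 1 of the other 7 arrays, where the adjusted p reached 0.135, and it was at 0.06 with slide row as a block.

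Other proteasome genes of peptide supply all had negative differences, 8 of 8, with a median of -0.16. Psmb10, the third inducible catalytic subunit, was at -0.36 ± 0.25 (adjusted p = 0.426). The activator subunits Psme1 and Psme2 were at -0.03 ± 0.14 (adjusted p = 0.936) and -0.18 ± 0.19 (adjusted p = 0.6, limma). None of the 8 passed. Like Psmb8 and Psmb9 these 3 followed the mean of the 10 genes from array to array, with r of 0.94, 0.97 and 0.91. That mean is mostly the pattern of the 7 genes that moved together, and not of Nlrc5, Tap1 and Erap1. The constitutive subunits Psmb5, Psmb6 and Psmb7, named here after their values were seen, had r of 0.69, 0.23 and 0.26.

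Among 17 other heavy chains measured 0 passed the threshold and 0 had an unadjusted p under 0.05 in limma. H2-T23, which encodes the nonclassical Qa-1, was at -0.12 ± 0.15 (adjusted p = 0.674) and H2-M3, which presents formylated peptides, at -0.24 ± 0.13 (adjusted p = 0.302). Of the 16 above background on all arrays, 12 (75%) had r of at least 0.8 with the mean of the 10 genes, beside 9.84% of all features. Heavy chain genes are close in sequence, so how far their probes read each other is uncertain.

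Of the 8 loading and folding genes 0 had r of at least 0.8 with the mean of the 10 genes, and their median r was 0.03. The chaperones Calr and Canx, which hold new heavy chains, were at -0.18 ± 0.10 (adjusted p = 0.319) and 0.04 ± 0.08 (adjusted p = 0.793, limma). Pdia3, the disulfide isomerase of the loading complex, was at 0.18 ± 0.08 (adjusted p = 0.233), and Tapbpl, the tapasin-like editor, at 0.10 ± 0.12 (adjusted p = 0.666). None of the 8 passed, with 1 lower at an unadjusted p under 0.05.

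Of the 8 measured factors that bind class I promoters 0 passed, with a median of -0.22, and 1 was higher and 4 lower with an unadjusted p under 0.05. Of the 21 measured genes of interferon and NF-kB signalling 0 passed, with 2 higher and 3 lower unadjusted. Irf1, a direct activator of class I genes, was at -0.10 ± 0.16 (adjusted p = 0.746) and Irf9, the DNA-binding part of the type I interferon complex, at -0.04 ± 0.22 (adjusted p = 0.929). Irf7, the regulator of type I interferon genes, was at 1.01 ± 0.58 (adjusted p = 0.337, limma) and well above background on 4 GFP-positive and 2 GFP-negative arrays. The interferon genes Ifnb1 and Ifng were not well above background on any array.

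Interferon-stimulated genes outside the pathway were read beside it. Of 30 measured, 1 rose and 0 fell in limma, with 6 and 1 at an unadjusted p under 0.05, and a median difference of 0.13. Usp18, which removes ISG15 from proteins and damps interferon signalling, rose by 1.17 ± 0.20 (adjusted p = 0.0296). It passed without GFP-negative replicate 2 and without GFP-positive replicate 2, but not without any 1 of the other 6 arrays, where the adjusted p reached 0.106, and it was 0.0614 in limma with the row as a block. Of the 27 above background on all arrays 15 (55.6%) had r of at least 0.8 with the mean of the 10 genes, with a median of 0.83.

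**Figure D4:**
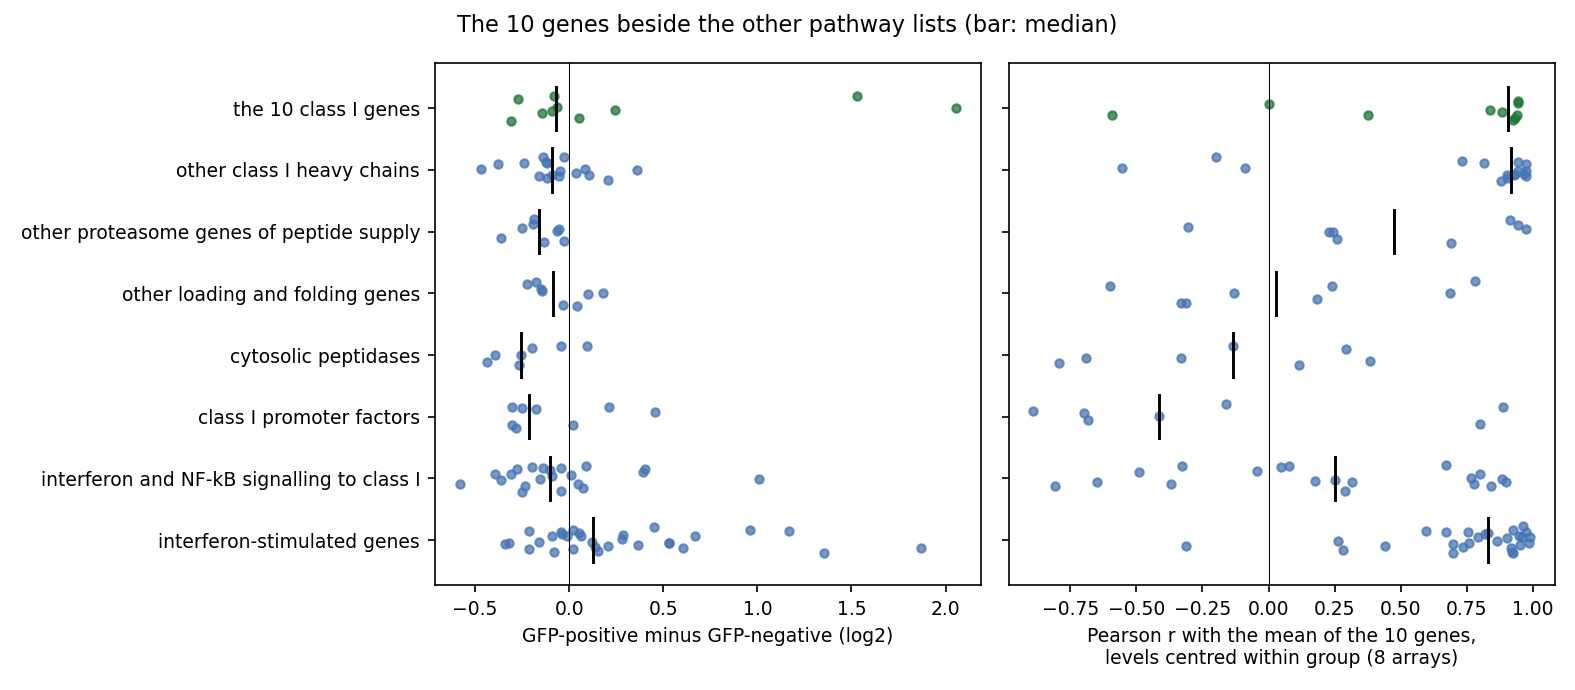
The 10 genes (green) beside 7 other lists (blue), 1 point per measured gene and a black bar at each list's median. Left: GFP-positive minus GFP-negative difference (log2), where the lists' medians lie between -0.25 and 0.13 and Nlrc5 and Tap1 are the 2 green points beyond 1.5. Right: Pearson r over 8 arrays with the mean of the 10 genes, levels centred within each fraction; for the 10 genes the mean is that of the other 9, and the heavy chains and interferon-stimulated genes have medians of 0.92 and 0.83.

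The features whose pattern was most like that mean, over 8 arrays and among 17223 features that are not members, were Kyat3, Loxl2, Trim46, Tmem218, H2az2, Unc93b1, Mitd1, Rtp4, Zfp467 and Mdfic. Their r ran from 0.987 (Mdfic) to 0.997 (Kyat3 and Loxl2), and Spearman's rho from 0.90 to 1. Without GFP-negative replicate 2 and GFP-positive replicate 4, r ran from 0.961 to 0.996. Loxl2 encodes a collagen-crosslinking lysyl oxidase, Unc93b1 a chaperone of endosomal Toll-like receptors, and Rtp4 an interferon-induced protein. Many features share the pattern: 671 (3.89%) had r of at least 0.9, and the median over all was -0.03.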

How the data were processed

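The scanner files, 1 per array, were made by Agilent Feature Extraction 10.7.3.1 with protocol GE1_107_Sep09 and probe positions on mm9, per the file headers. The deposited intensity was the processed signal, which that program had corrected for background; the mean signal and median local background served 1 alternative. Later steps of the authors are not stated. Of 62976 spots per array 59305 were not controls, and 106 to 186 outlier spots were dropped. Log2 signals were set relative to each array's 75th percentile and averaged over the spots of a probe. A probe was kept if well above background on 4 or more of the 8 arrays (27590 probes), and the brightest kept probe stood for its gene. RefSeq genes of GRCm38.p6 named 27509 probes (49.4%) by accession, and 14148 features carry such a symbol. Exon annotation of mm9 was not used here.

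The fractions were compared in R 4.3.3 with the data.table package (1.17.8) and limma (version 3.58.1; lmFit, eBayes, two-sided, no replicate block), with Benjamini-Hochberg adjustment over all features and a threshold of 0.05. The gap between slide rows was the interaction of fraction and row in such a fit. Both steps were tested on simulated data. The members and lists were chosen with earlier results of these data known. Named besides the members were genes of each pathway list past the threshold (up to 4 per direction), 13 pathway genes whatever their result (1 is not reported here), and the 10 features most like the members' mean. Alternatives were the background correction, the scaling, the filter on dim probes, the probe per gene, slide row, replicate block, array weights, an intensity trend with robust prior, and leaving out each array. Precision is limited by the number of arrays, and p-values measure the spread between them. Same-numbered arrays of the fractions did not deviate together (r of -0.03, 0.07, 0.02 and 0.18 across features), so replicate numbers were not used as pairs.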

Additional observations from a re-analysis of the deposited data

Results flagged for a closer look

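Irf7 on GFP-positive replicate 4 stood at -3.47, away from the other 3 GFP-positive arrays at -4.21 to -4.09. The gap was 0.839 of the group's range, above Dixon's 95% critical value for 4 samples. It was the 1 such case in 50 groups of 4 arrays (25 genes), and chance gives about 1 in 20 groups. The same array was the highest GFP-positive one in the 7 genes that moved together.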

How the results depend on the processing

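The count over all features (503 past the threshold, 357 higher and 146 lower) was 785 with normexp, 202 with array-median scaling (181 and 21), 151 with no filter, 277 with slide row as a block, 1046 within row 1, 0 within row 2, 1818 with array weights (796 and 1022), 1164 with the intensity trend and robust prior (535 and 629), and 150 to 422 without 1 array, the lowest without GFP-positive replicate 1. The count for the gap between rows (240) was 783 with normexp, 0 with no filter, 564 with probes above background on all 8 arrays, 713 with the trend and robust prior, and 0 to 23 without 1 array. The row's own count of 0 became 4069 with no filter. The count of other pathway genes (1) was 2 with normexp, 0 with array-median scaling, 0 with no filter, 4 with all 8 arrays above background, 0 with the row block and within row 2, 5 with weights and with the trend, and 0 to 1 without 1 array. The cause was not tested.

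The replicate number as a block gave 214 features (188 higher and 26 lower) and 0 other pathway genes. Same-numbered arrays share only a number; GFP-negative replicates 1 to 4 correlated best with GFP-positive replicates 3, 4, 1 and 2, a hint from the data only.

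The members' median of -0.07 ran from -0.16 (without GFP-positive replicate 4) to 0.13 (without GFP-positive replicate 3) when 1 array was left out. Over all alternatives it ran from -0.39 (within row 1) to 0.55 (within row 2), and was -0.19 with array-median scaling. The Tap1 difference ran from 1.12 (normexp) to 1.63 over 20 alternatives, and the Nlrc5 difference from 0.69 (normexp) to 2.51 over 19. Nlrc5 was not kept where all 8 arrays had to be above background, and it was 1.24 as the mean of both probes.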
